A study of Rattus norvegicus with 15 samples.

Results

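The receptors for GABA and glycine and the ionotropic receptors for glutamate were followed through 5 light and time conditions in the rat retina. Genes were taken by symbol (*Gabr*, *Gabbr*, *Glra*, *Glrb*, *Gria*, *Grik*, *Grin* and *Grid* names) from array probe sets that carry exactly 1 gene symbol, which gave 39 receptor genes of 14217 gene symbols. They comprised 13 GABA-A subunits, 3 GABA rho subunits, 2 GABA-B subunits, 4 glycine receptor genes, 4 AMPA, 5 kainate and 7 NMDA receptor subunits and the delta receptor *Grid1*. The 39 genes were read by 66 probe sets, 20 genes by more than 1. The probe set with the highest mean over all arrays stood for its gene.

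Total RNA was from retinas of adult Long Evans rats, male by the study's methods, that had spent the night in darkness. Retinas were taken at 7 am in darkness (0 ZT dark, the control), at 10 am in darkness (3 ZT dark) or in light of 1000 lux (3 ZT light), and at 1 pm in darkness (6 ZT dark) or in light (6 ZT light), with 3 replicas each and 15 Affymetrix rat expression arrays in all. The titles of the 6 ZT light samples and the paper give 6 hours of light, while their source and treatment labels give 3, and the former was used. The sources used here do not say how many animals stand behind an array, so that the p-values cover only the spread among the arrays as hybridised, and some of it may be technical. In whole retina, fewer cells of a type and less RNA per cell cannot be told apart.

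GABA and glycine are the inhibitory transmitters of the retina, released by amacrine and horizontal cells. GABA-A, rho and glycine receptors are pentameric chloride channels, and rho receptors are best known from the axon terminals of bipolar cells. GABA-B receptors are pairs of *Gabbr1* and *Gabbr2* that act through G proteins. Photoreceptors and bipolar cells release glutamate. AMPA and kainate receptors carry it to OFF bipolar, horizontal, amacrine and ganglion cells, NMDA receptors act mainly on amacrine and ganglion cells, and ON bipolar cells respond through the metabotropic receptor *Grm6*.

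Values are log2 intensities from the Robust Multi-array Average, and a level of one probe set cannot be set against that of another. The median log2 value of an array was 8.28 to 8.32 in replica 1, 8.58 to 8.68 in replica 2 and 8.74 to 8.80 in replica 3, and each array was compared with that of the same replica number. The rod markers averaged 14.92 to 15.18 on every array. The 3′ to 5′ difference of the *Actb* control probe sets, which grows when RNA degrades, was 2.098 in replica 1 of 0 ZT dark and 2.399 in replica 2 of 3 ZT light, with 0.708 to 1.371 on the other arrays. Of the receptor genes, 7 lay in the dimmest 25% of all probe sets (mean log2 value under 6.989), namely *Gabra6*, *Gabrg3*, *Gabrp*, *Glra3*, *Gria1*, *Grik4* and *Grin3a*.

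Sequence upstream of the annotated start is shown for the 3 rho genes, because this was the class in which every gene was lower in every replica of 3 ZT light than of 3 ZT dark. *Gabrr1* and *Gabrr2* are neighbours on chromosome 5, and *Gabrr3* lies on chromosome 11. The windows are the 250 bases before the start in RefSeq (rat build GRCr8), written 5′ to 3′ in the direction of transcription. They span chr5:52320225-52320474 on the plus strand for *Gabrr1*, chr5:52248228-52248477 on the plus strand for *Gabrr2* and chr11:54424467-54424716 on the minus strand for *Gabrr3*. The *Gabrr2* window lies inside the annotated span of the gene. Capitals mark the motifs found.
Gabrr1: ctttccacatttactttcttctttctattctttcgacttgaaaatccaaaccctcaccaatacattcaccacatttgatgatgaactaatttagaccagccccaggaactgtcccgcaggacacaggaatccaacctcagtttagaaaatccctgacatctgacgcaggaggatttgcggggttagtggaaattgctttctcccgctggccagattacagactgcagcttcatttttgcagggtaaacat
Gabrr2: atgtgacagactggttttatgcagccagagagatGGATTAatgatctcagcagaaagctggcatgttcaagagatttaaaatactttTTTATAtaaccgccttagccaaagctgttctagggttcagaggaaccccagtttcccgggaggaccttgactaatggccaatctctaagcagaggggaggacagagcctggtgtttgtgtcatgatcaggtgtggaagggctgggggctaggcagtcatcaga
Gabrr3: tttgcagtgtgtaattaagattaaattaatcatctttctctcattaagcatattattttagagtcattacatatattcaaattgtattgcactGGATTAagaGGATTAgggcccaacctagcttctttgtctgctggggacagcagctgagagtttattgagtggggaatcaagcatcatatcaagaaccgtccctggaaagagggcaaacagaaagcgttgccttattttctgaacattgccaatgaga

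Both strands were searched for TAATCC, the core site of the photoreceptor and bipolar cell factors Crx and Otx2, and for CACGTG, the E-box of the clock factors. The other letters searched were AGGTCA, a core site of nuclear receptors, then TATAAA, known as the TATA box, and at last GGGCGG, known as the GC box. The matches shown in capitals do not overlap each other. The site of Crx and Otx2 stood on the opposite strand, read as GGATTA, 216 bases before the start of *Gabrr2* and 157 and 148 bases before that of *Gabrr3*. *Gabrr2* also held a TATA box on the opposite strand, and *Gabrr1* held none of these motifs. RefSeq windows were matched for 29 of the 39 receptor genes, and 3 of them (10.3%) held the Crx and Otx2 site (*Gabrr2*, *Gabrr3* and *Glra3*), against 6.33% of all 27457 windows. The E-box was in 0 of 29 windows against 5.79% of all, the nuclear receptor site in 1 (3.45%, *Grin2c*) against 13.7%, the TATA box in 3 (10.3%) against 13.1% and the GC box in 13 (44.8%) against 32.4%. The median C and G content was 59.6% in the receptor windows and 52% in all. These matches are a description of the windows only.

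No receptor gene changed at an adjusted p under 0.05 in any of the 6 comparisons, which set light against darkness of the same hour and each later condition against 0 ZT dark (limma, Benjamini-Hochberg adjustment over 31042 probe sets). Over all probe sets the same threshold was passed by 1 (0.00322%), lower, in 3 ZT light against 0 ZT dark, by 1 (0.00322%), lower, in 3 ZT light against 3 ZT dark, and by 0 in the other comparisons. At an unadjusted p under 0.05, 389 to 2711 probe sets passed in a comparison. Among the probe sets standing for the receptor genes, a moderated F test over the 5 conditions gave a lowest adjusted p of 0.687. Of these, 1 of 39 (2.56%, *Grin2d*) had an unadjusted p under 0.05, against 6.8% of all probe sets. Dimmer probe sets of *Gabrr1* and *Gabbr1* had lower p-values in that test (adjusted p = 0.633 each). The fitted differences of the 39 genes ran from −0.69 to 0.66 over the 6 comparisons. The 95% interval of a gene's difference reached 0.36 log2 units to either side at the median of all 39 genes, and 0.22 at that of the NMDA and 0.26 at that of the GABA-A genes. The values below are descriptions of direction and size, and 4 of the comparisons share the 0 ZT dark arrays. Counts of receptor genes rest on the probe set standing for each gene.

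In light at 3 ZT the rho subunits were lower in every replica than in darkness of the same hour, by the probe set standing for each gene. In 3 ZT light against 3 ZT dark all 3 genes were lower in all 3 replicas, while 5 of 39 receptor genes (12.8%) and 9.43% of all probe sets were lower in all 3. The differences were −0.47 for *Gabrr1*, −0.23 for *Gabrr2* and −0.57 for *Gabrr3*. *Gabrr3* was the single receptor gene with an unadjusted p under 0.05 in this comparison (2.56% of 39, against 2.64% of all probe sets in that direction and 1.96% in the other). A dimmer *Grin2a* probe set passed that threshold in the other direction. The other genes lower in all 3 replicas were *Grin2d* and *Grin3b*, and no receptor gene was higher in all 3 (7.71% of all probe sets). Against 0 ZT dark, replica 1 had 1 rho gene higher, 1 equal and 1 lower, while all 3 were lower in replicas 2 and 3.

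*Gabrr3*, read by 1 probe set, was at 7.40, 8.47 and 8.34 in replicas 1, 2 and 3 of 0 ZT dark and at 7.64, 8.47 and 8.20 in 3 ZT dark. It was at 7.40, 7.35 and 7.85 in 3 ZT light, at 7.40, 8.47 and 8.40 in 6 ZT dark and at 7.40, 8.86 and 8.32 in 6 ZT light. The low values of 3 ZT light stand in replicas 2 and 3, while replica 1 read 7.40 in 4 of its 5 arrays, and the groups overlapped. The difference was −0.57 (SE 0.217, limma adjusted p = 0.895) to 3 ZT dark and −0.54 (SE 0.217, limma adjusted p = 0.637) to 0 ZT dark. Without 3 ZT light replica 2, the array with the largest *Actb* difference, the difference to 3 ZT dark was −0.25.

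*Gabrr1*, a rho subunit that can form channels on its own, was at 10.65, 11.76 and 11.81 in 0 ZT dark, at 11.39, 11.36 and 11.88 in 3 ZT dark and at 10.52, 11.07 and 11.63 in 3 ZT light. Its 6 ZT values were 10.82, 12.10 and 12.03 in darkness and 10.89, 12.41 and 12.30 in light. Each 3 ZT light array thus lay below both dark arrays of its number at 0 and 3 ZT, and each 6 ZT light array lay above them except replica 1 of 3 ZT dark. The ratio to 0 ZT dark of the same number was 0.804 ± 0.159 (SD, n = 3) for the 3 ZT light arrays and 1.38 ± 0.196 for those of 6 ZT light. The fitted differences were −0.34 (SE 0.234, limma adjusted p = 0.725) and 0.46 (SE 0.234, limma adjusted p = 0.842). Without 3 ZT light replica 2 the former was −0.19, and without 6 ZT light replica 2 the latter was 0.26. The difference of −0.47 to 3 ZT dark was −0.32 without 3 ZT light replica 2 and −0.16 without 3 ZT dark replica 1.

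A dimmer *Gabrr1* probe set was the only receptor probe set that passed the ratio rule of the study, a ratio above 1.6 or below 0.7 to the control of the same number in all 3 replicas. It did so in 6 ZT light against 0 ZT dark with ratios of 1.63, 2.27 and 1.74, a rule that 0.0709% of all probe sets passed upward in that comparison. Its values were 6.82, 7.52 and 8.26 in 0 ZT dark, 7.51, 8.80 and 8.88 in 6 ZT dark and 7.52, 8.70 and 9.06 in 6 ZT light. It was as high in darkness as in light at 6 ZT, with differences to 0 ZT dark of 0.86 (SE 0.246, limma adjusted p = 0.495) and 0.90 (SE 0.246, limma adjusted p = 0.495) and a difference of 0.03 between them (95% interval −0.51 to 0.58). At 3 ZT it was at 7.26, 7.43 and 7.98 in darkness and at 7.06, 7.05 and 8.42 in light, a difference of −0.05, against −0.47 for the brighter probe set. The probe sets of *Gabrr1* thus gave the same order of 6 ZT above 0 ZT and different sizes for light at 3 ZT. No probe set standing for a receptor gene passed the ratio rule in any comparison. Over all probe sets the upper limit was passed by 0.058%, 0.0709%, 0% and 0.0644% in 3 ZT light, 6 ZT light, 3 ZT dark and 6 ZT dark against 0 ZT dark, and the lower limit by 0.0741%, 0.0709%, 0.0161% and 0.287%. Between light and darkness the upper limit was passed by 0.0161% at 3 ZT and 0.0548% at 6 ZT, and the lower by 0.0322% and 0.0387%.

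*Gabrr2* was at 9.50, 10.55 and 11.12 in 0 ZT dark, at 10.28, 9.84 and 11.15 in 3 ZT dark and at 9.94, 9.69 and 10.94 in 3 ZT light. Its 6 ZT values were 10.40, 11.94 and 10.81 in darkness and 10.77, 10.67 and 10.33 in light. The differences of 3 ZT light to 3 ZT dark were −0.34, −0.15 and −0.21 in replicas 1, 2 and 3. The SD across the arrays, which includes the offset between replica numbers, was 0.67 in darkness and 0.66 in light. With light at 6 ZT the replicas differed in sign, with 0.38, −1.27 and −0.48. Its dimmer probe set differed by 0.09 (SE 0.125) between 3 ZT light and 3 ZT dark, opposite in sign to the brighter one.

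**Figure D1:**
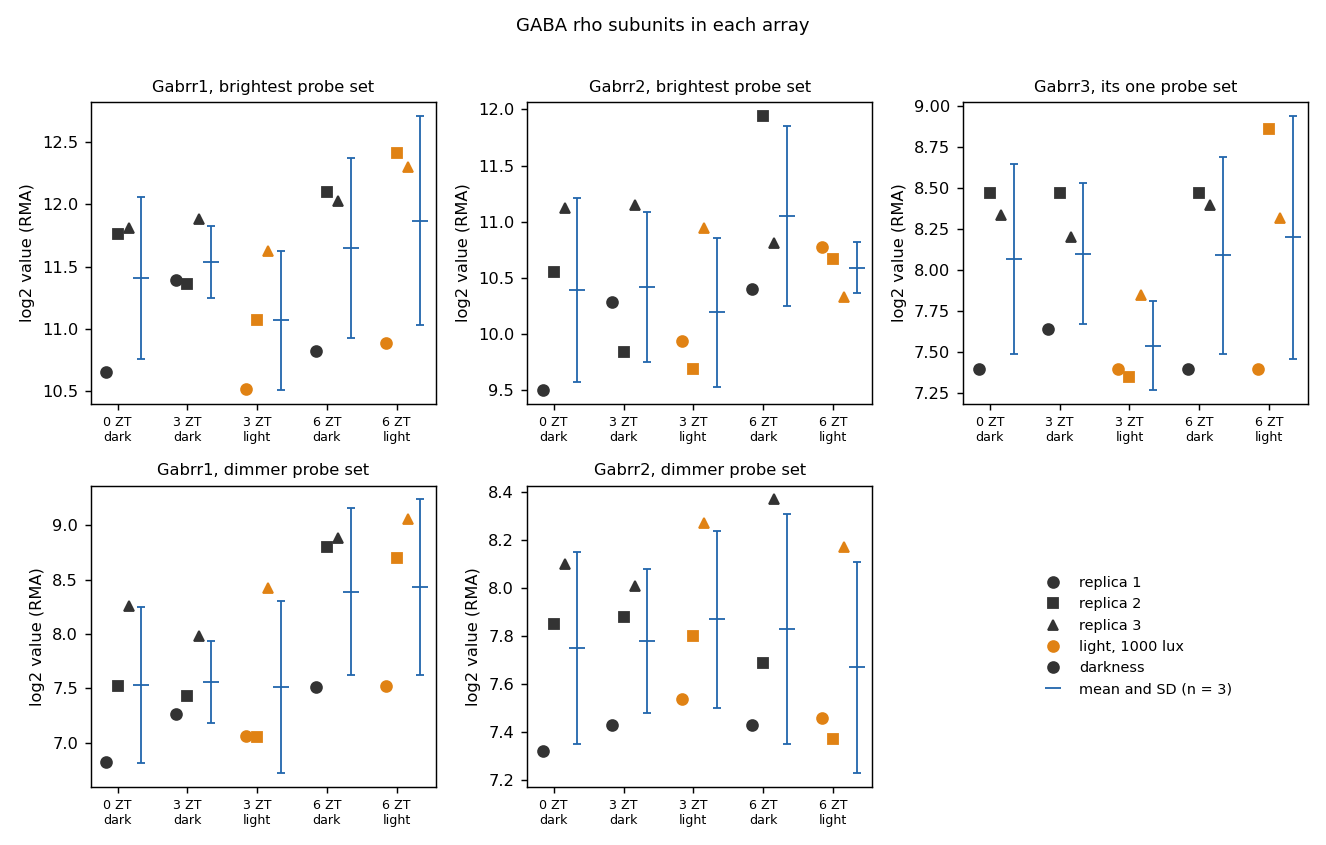
Log2 values (vertical axis) of the 5 probe sets of the GABA rho subunits in each of 15 arrays, by condition (horizontal axis). Symbols are replicas, orange marks light, and blue bars are mean and SD (n = 3). The 3 ZT light arrays of *Gabrr3* sit between 7.35 and 7.85, and the dimmer *Gabrr1* probe set is higher at 6 ZT in darkness and in light.

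Bipolar cell markers were low beside the rho genes in light at 3 ZT. Of this list, 5 of 5 measured markers (*Grm6*, *Prkca*, *Pcp2* and *Isl1* among them) had lower values in light at 3 ZT than in darkness at 3 ZT (median −0.75) or at 0 ZT (median −0.70). Their mean log2 level was 10.47 to 10.86 on the 3 ZT light arrays, 11.11 to 11.34 in 3 ZT dark and 10.85 to 11.54 in 0 ZT dark. *Pcp2*, a bipolar cell protein, differed by −0.76 from 3 ZT dark, with −0.64, −1.15 and −0.49 in the 3 replicas (limma adjusted p = 0.895). The largest of these was in replica 2, whose 3 ZT light array had the largest *Actb* difference. Markers of some other cells were low in the same comparisons. For Müller glia it was 6 of 6 (median −0.23 to 3 ZT dark and −0.31 to 0 ZT dark). For cones it was 5 of 5 (median −0.19 and −0.15) and for blood and vessel 4 of 4 (median −0.26 and −0.16). Higher than in 3 ZT dark were 14 of 15 lens (median 0.45), 6 of 9 amacrine (0.05), 5 of 8 ganglion (0.20) and 4 of 7 pigment epithelium markers (0.25). Rod, horizontal and microglia markers were 2 higher and 2 lower each against 3 ZT dark. Lower than in 0 ZT dark were 11 of 15 lens (median −0.10), 6 of 9 amacrine (−0.25), 4 of 8 ganglion (−0.01) and 3 of 7 pigment epithelium markers (0.14). So were 3 of 4 horizontal (−0.14), 3 of 4 microglia (−0.10) and 2 of 4 rod markers (0.06). The other comparisons gave the following values for both lists. In 6 ZT dark, 6 ZT light and 3 ZT dark against 0 ZT dark all 3 rho genes were above 0 (medians 0.24, 0.20 and 0.03), while 4, 3 and 3 of 5 bipolar markers were below 0 (medians −0.05, −0.15 and −0.08). By replica the rho medians in 3 ZT dark against 0 ZT dark were 0.74, −0.40 and 0.03. Between light and darkness at 6 ZT, 2 of 3 rho genes and 3 of 5 bipolar markers were higher in light (medians 0.10 and 0.04). The part of these cells in the rho values was not tested.

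Kainate receptor genes, which serve OFF bipolar cells among others, gave the other uniform sign at 3 ZT. All 5 lay below 3 ZT dark (median −0.26, range −0.30 to −0.09) and 4 of 5 below 0 ZT dark (median −0.32). By replica the class medians against 3 ZT dark were −0.50, −0.33 and −0.01, so the difference stood in replicas 1 and 2. *Grik1*, the main kainate subunit of some OFF bipolar cells, was at 8.76, 9.24 and 9.60 in 0 ZT dark, at 9.10, 8.85 and 9.21 in 3 ZT dark and at 8.58, 8.51 and 9.27 in 3 ZT light. The auxiliary subunit *Grik5* was at 7.97, 8.64 and 9.01 in 0 ZT dark, at 8.28, 8.08 and 8.81 in 3 ZT dark and at 7.78, 7.73 and 8.89 in 3 ZT light. Against 3 ZT dark both were lower in light in replicas 1 and 2 and higher in replica 3, with a fitted −0.26 each (SE 0.244 and 0.255). Against 0 ZT dark both were lower in light in all 3 replicas with overlapping groups, by −0.41 (SE 0.244, limma adjusted p = 0.698) for *Grik1* and −0.41 (SE 0.255, limma adjusted p = 0.705) for *Grik5*. These values were −0.20 and −0.17 without 3 ZT light replica 2, and −0.19 and −0.26 without both arrays of large *Actb* difference.

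In 3 ZT light against 0 ZT dark 21 of 39 receptor genes (53.8%) had a difference above 0, against 51.2% of all probe sets, with a median of 0.03. Lower in all 3 replicas were *Gabrr1*, *Grik1*, *Grik5* and the NMDA subunit *Grin2c* (10.3%, against 11% of all probe sets), and higher in all 3 were *Gabra6* and *Gabre* (5.13%, against 11.8%). *Gabra6*, a GABA-A subunit known from cerebellar granule cells and dim here, was at 5.22, 6.25 and 6.44 in 0 ZT dark and at 5.49, 6.42 and 6.55 in 3 ZT light, a difference of 0.18 (SE 0.119). *Gabre*, the epsilon subunit of GABA-A receptors, was at 6.99, 7.08 and 7.02 and at 7.14, 7.27 and 7.06, a difference of 0.13 (SE 0.114). Without both arrays of large *Actb* difference *Gabra6* was at −0.01 and *Gabre* no longer differed in the second decimal. *Gabrr3* was the 1 gene with an unadjusted p under 0.05 (2.56%, against 4.43% of all probe sets in that direction and 3.25% in the other). A dimmer *Gabrb2* probe set passed that threshold in the other direction.

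In 3 ZT dark against 0 ZT dark 25 of 39 genes (64.1%) were above 0, against 52.2% of all probe sets, and without 3 ZT dark replica 1 the count was 15. No receptor gene had an unadjusted p under 0.05 (0.477% of all probe sets higher, 0.776% lower), and the differences ran from −0.34 (*Gabra2*) to 0.21 (*Grin2d*). Higher in all 3 replicas were 7 genes (17.9%, against 7.78% of all probe sets), *Gabra6*, *Gabrb2*, *Glra1*, *Gria2*, *Grik3*, *Grin2a* and *Grin2d*. *Grik3*, a kainate subunit of low agonist affinity, was at 7.20, 7.40 and 7.90 in 0 ZT dark and at 7.40, 7.56 and 7.95 in 3 ZT dark. Without 0 ZT dark replica 1 its difference of 0.14 was 0.05, that of *Grin2d* (0.21) was 0.06 and that of *Gabra6* (0.15) was 0.06. Only *Grin1* was lower in all 3 (2.56%, against 8.52%), by −0.01, −0.46 and −0.10.

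The largest share of receptor genes on 1 side of 0, among the 6 comparisons, was in darkness at 6 ZT. In 6 ZT dark against 0 ZT dark 32 of 39 genes (82.1%) had a difference above 0, against 52.4% of all probe sets, with a median of 0.08 against 0.008. All 7 NMDA, 3 rho and 2 GABA-B genes, 11 of 13 GABA-A genes, 4 of 5 kainate and 3 of 4 glycine receptor genes were above 0, and 2 of 4 AMPA genes were. By replica 23, 23 and 27 genes were higher and 11, 11 and 8 lower, with the rest equal, while 44.8%, 45% and 51.6% of all probe sets were higher. The 3 genes with an unadjusted p under 0.05 were all higher, *Gabra3*, *Gabrg1* and *Grin2d* (7.69%, against 3.47% of all probe sets in that direction and 5.26% in the other). Of all 66 receptor probe sets, 8 were higher at that threshold and 0 lower. Dimmer probe sets of *Gabbr1*, *Gabbr2*, *Gabrd*, *Gabrr1* and *Gria3* were among them. Of the 5 conditions, 6 ZT dark had the highest mean for 20 of 39 genes (24.7% of all probe sets) and the lowest for 1 (23.2%). Leaving out each array in turn gave 27 to 32 genes above 0.

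*Grin2d*, an NMDA subunit, had the lowest p over the conditions among the probe sets standing for the genes (moderated F, limma adjusted p = 0.687). It was at 7.35, 7.73 and 8.31 in 0 ZT dark, at 7.73, 7.89 and 8.41 in 3 ZT dark and at 8.08, 8.42 and 8.59 in 6 ZT dark. In light it was at 7.64, 7.21 and 8.16 at 3 ZT and at 8.15, 7.91 and 8.37 at 6 ZT. In darkness every replica was higher at 3 ZT than at 0 ZT and higher again at 6 ZT, though the groups overlapped. The ratio of 6 ZT dark to 0 ZT dark was 1.49 ± 0.248 (SD, n = 3), with a difference of 0.56 (SE 0.162, limma adjusted p = 0.495). In light the differences to the dark arrays of the same hour were −0.34 at 3 ZT, lower in all 3 replicas and −0.15 without 3 ZT light replica 2, and −0.22 at 6 ZT, lower in 2 of 3. Its other probe set differed by 0.18 (SE 0.0965) between 6 ZT dark and 0 ZT dark.

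*Gabra3*, an alpha subunit of GABA-A receptors, was at 6.41, 6.81 and 7.25 in 0 ZT dark, at 6.63, 7.46 and 7.75 in 6 ZT dark and at 6.45, 7.24 and 7.87 in 6 ZT light. Every 6 ZT array was above the 0 ZT dark array of its number, in darkness by 0.46 (SE 0.179, limma adjusted p = 0.537) and in light by 0.37 (SE 0.179, limma adjusted p = 0.826), which was 0.22 without 6 ZT light replica 3. At 3 ZT its means, 6.82 in darkness and 6.87 in light, were within 0.05 of the 0 ZT mean. *Gabrg1*, a gamma subunit, was at 6.22, 7.03 and 7.46 in 0 ZT dark and at 6.80, 7.03 and 7.83 in 6 ZT dark. Its replica 2 read 7.03 in 4 of 5 conditions, and the difference of 0.31 (SE 0.119, limma adjusted p = 0.536) came from the other replicas.

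*Gabbr1* was the 1 receptor gene whose 6 ZT dark and 0 ZT dark arrays did not overlap (2.56%, against 0.673% of all probe sets in that direction and 3.69% in the other). It was at 11.66, 12.16 and 12.21 in 0 ZT dark and at 12.33, 12.37 and 12.42 in 6 ZT dark, a difference of 0.36 (SE 0.187, limma adjusted p = 0.609). The 0 ZT dark replica 1, of large *Actb* difference, was the lowest of these, and without it the difference was 0.19. The gene has 5 probe sets. The one ranked 4 by brightness was at 7.65, 8.01 and 8.33 in 0 ZT dark, at 8.08, 8.49 and 8.66 in 6 ZT dark and at 7.75, 8.06 and 8.09 in 6 ZT light. It was thus higher in 6 ZT dark than in either neighbouring group in every replica, by 0.41 over 0 ZT dark (SE 0.0947, limma adjusted p = 0.457), and was lower by −0.44 in 6 ZT light than in 6 ZT dark (SE 0.0947, limma adjusted p = 0.44). The brightest probe set differed by −0.08 (SE 0.187) in the latter comparison. All 5 probe sets lay above 0 ZT dark in 6 ZT dark (0.08 to 0.71), but between light and darkness at 6 ZT they ran from −0.44 to 0.01. The one ranked 3 had a mean of 9.67 in both 6 ZT groups, against 8.95 in 0 ZT dark. A fall with light at 6 ZT thus depended on the probe set.

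Below 0 in 6 ZT dark against 0 ZT dark in all 3 replicas were *Gabra5* and *Grik2* (5.13%, against 15.1% of all probe sets). The kainate subunit *Grik2* was at 8.07, 8.51 and 8.58 in 0 ZT dark and at 7.58, 8.33 and 8.42 in 6 ZT dark, a difference of −0.28 (SE 0.241) that was −0.05 without 0 ZT dark replica 1. The GABA-A subunit *Gabra5* was at 7.73, 7.89 and 7.84 and at 7.68, 7.75 and 7.83, a difference of −0.06 (SE 0.0884) that was 0.01 without 6 ZT dark replica 2. Higher in all 3 were 9 genes (23.1%, against 15.5%), *Gabbr1*, *Gabbr2*, *Gabra3*, *Gabra4*, *Gabrb2*, *Gabrr1*, *Glra3*, *Grin1* and *Grin2d*.

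**Figure D2:**
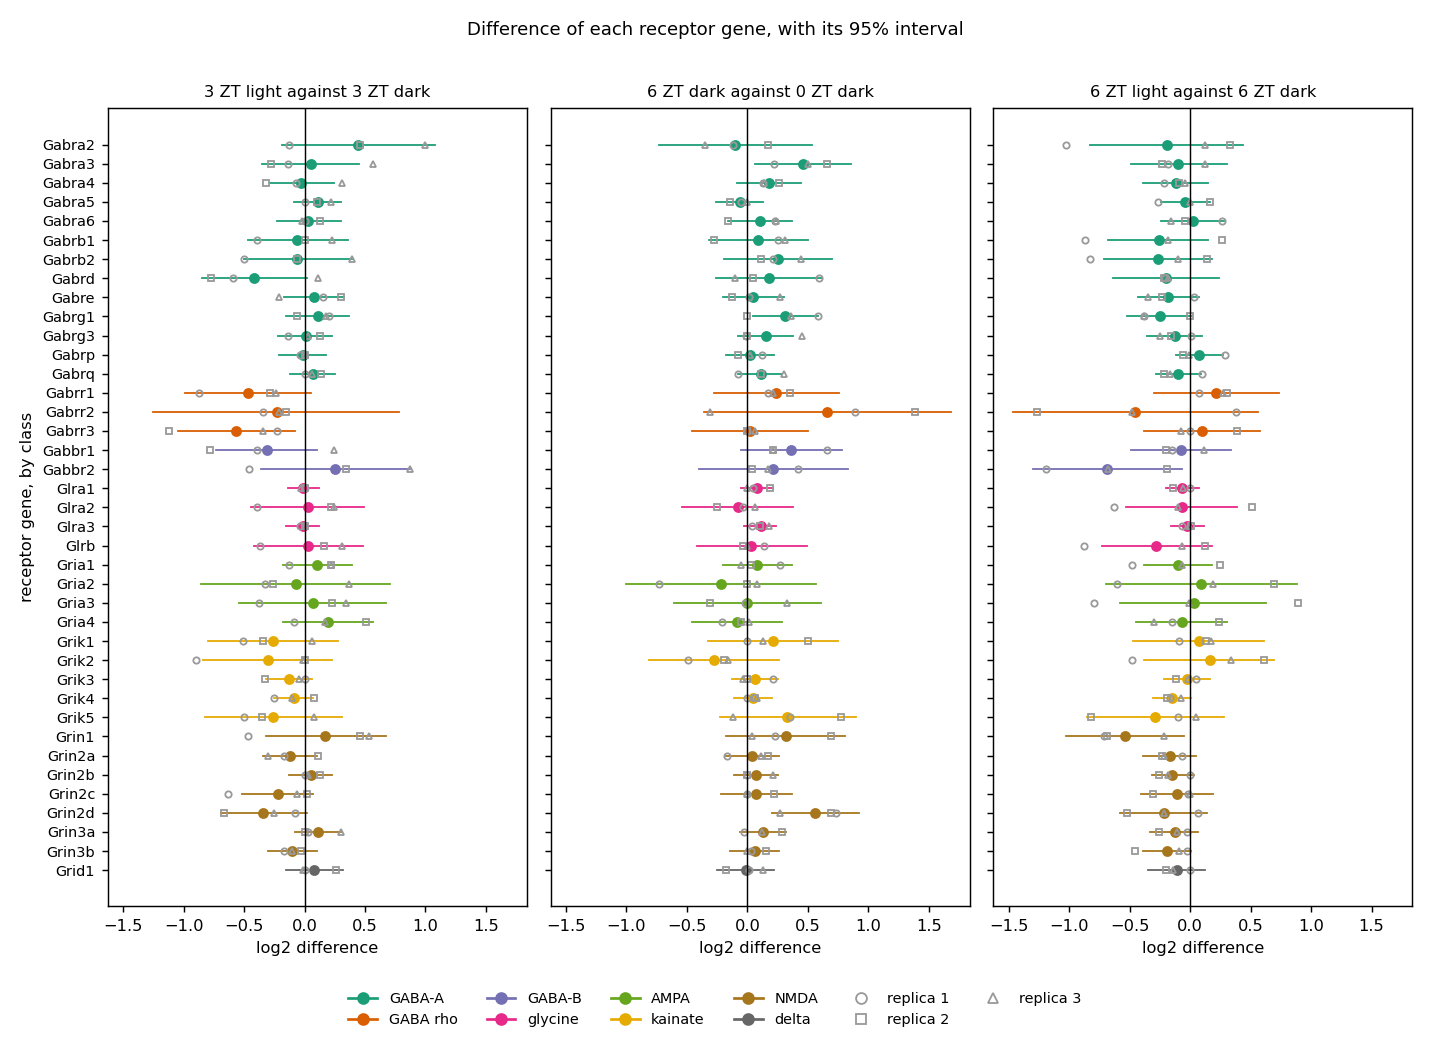
Log2 difference (horizontal axis) of each of the 39 receptor genes, by class (vertical axis), in 3 ZT light against 3 ZT dark, 6 ZT dark against 0 ZT dark and 6 ZT light against 6 ZT dark. Filled points are fitted differences, lines their 95% intervals and open symbols the replicas. Most points lie right of 0 in the middle panel (32 of 39) and left of 0 in the right panel (31 of 39), with intervals that mostly hold 0.

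With light at 6 ZT, against 6 ZT dark, the sign was the opposite one. Of 39 genes 31 (79.5%) were lower in light, against 51.9% of all probe sets, with a median of −0.11 against −0.007. All 7 NMDA, 4 glycine and 2 GABA-B genes and 11 of 13 GABA-A genes were lower, and 2 of 3 rho, 2 of 4 AMPA and 2 of 5 kainate genes were higher. By replica 26, 23 and 30 genes were lower, while 39.4%, 49.7% and 49.6% of all probe sets were. Both comparisons use the same 6 ZT dark arrays, so high values there give a positive difference to 0 ZT dark and a negative one from light. Against 0 ZT dark, 6 ZT light had 18 of 39 genes (46.2%) above 0, against 47.6% of all probe sets, with a median of −0.01.

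*Gabbr2* and *Grin1* were the genes with an unadjusted p under 0.05 between light and darkness at 6 ZT, both lower in light (5.13%, against 2.97% of all probe sets in that direction and 5.56% in the other). A dimmer *Gabbr1* probe set was also lower there at that threshold. *Gabbr2*, the GABA-B subunit that couples to the G protein, was at 11.82, 11.79 and 11.50 in 6 ZT dark and at 10.62, 11.60 and 10.82 in 6 ZT light. Its 0 ZT dark values were 11.39, 11.74 and 11.33, and it was in 3 ZT dark at 11.20, 11.73 and 11.37 and in 3 ZT light at 10.75, 12.07 and 12.24. Each array of 6 ZT light lay below the 6 ZT dark and the 0 ZT dark array of its number, by −0.69 (SE 0.278, limma adjusted p = 0.562) and −0.47 (SE 0.278, limma adjusted p = 0.868). The former was −0.42 without 6 ZT dark replica 1. A dimmer *Gabbr2* probe set differed by −0.15 from 6 ZT dark. Against 0 ZT dark it differed by 0.06 (SE 0.098), opposite in sign to the brighter one. In 3 ZT light the brighter probe set was higher than in 3 ZT dark in 2 of 3 replicas, by 0.25. The light effect at 6 ZT minus that at 3 ZT was −0.94 (SE 0.393, limma adjusted p = 0.776).

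*Grin1*, the subunit that every NMDA receptor contains, was at 10.71, 11.59 and 10.94 in 6 ZT dark and at 10.00, 10.90 and 10.71 in 6 ZT light. It was at 10.48, 10.90 and 10.90 in 0 ZT dark, at 10.47, 10.44 and 10.80 in 3 ZT dark and at 10.01, 10.90 and 11.33 in 3 ZT light. In light at 6 ZT it was lower in all 3 replicas, with a ratio of 0.696 ± 0.14 (SD, n = 3) and a difference of −0.54 (SE 0.223, limma adjusted p = 0.562) that was −0.35 without 6 ZT dark replica 2. Its dimmer probe set went the other way, at 7.37, 8.06 and 7.94 in 6 ZT dark and 7.27, 8.58 and 8.47 in 6 ZT light, a difference of 0.32 (SE 0.198, limma adjusted p = 0.652). The sign for *Grin1* thus depended on the probe set.

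Lower in all 3 replicas of 6 ZT light against 6 ZT dark were 8 genes (20.5%, against 13.5% of all probe sets), *Gabbr2*, *Gabra4*, *Gabrd*, *Grik4*, *Grin1*, *Grin2a*, *Grin3a* and *Grin3b*. *Grin3b*, an NMDA subunit that lowers calcium permeability, was at 6.96, 7.24 and 7.37 in 6 ZT dark and at 6.93, 6.78 and 7.28 in 6 ZT light, a difference of −0.19 (SE 0.0908) that was −0.11 without replica 2 of either group. *Grin2a* was at 6.76, 7.41 and 7.75 and at 6.69, 7.17 and 7.54, and each array of 6 ZT light also lay below that of 0 ZT dark (−0.14, SE 0.0994, and −0.07 without 0 ZT dark replica 1). *Gabrr1* alone was higher in all 3 (2.56%, against 17.2%), by 0.07, 0.30 and 0.27. Against 0 ZT dark, 4 genes of 6 ZT light were higher in all 3 replicas (10.3%, against 12.3% of all probe sets), *Gabbr1*, *Gabra3*, *Gabrr1* and *Grin2d*, and 2 lower (5.13%, against 9.38%), *Gabbr2* and *Grin2a*. No probe set standing for a receptor gene had an unadjusted p under 0.05 there (3.92% of all probe sets higher, 2.26% lower). The dimmer *Gabrr1* probe set did, with a difference of 0.90 (SE 0.246).

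**Figure D3:**
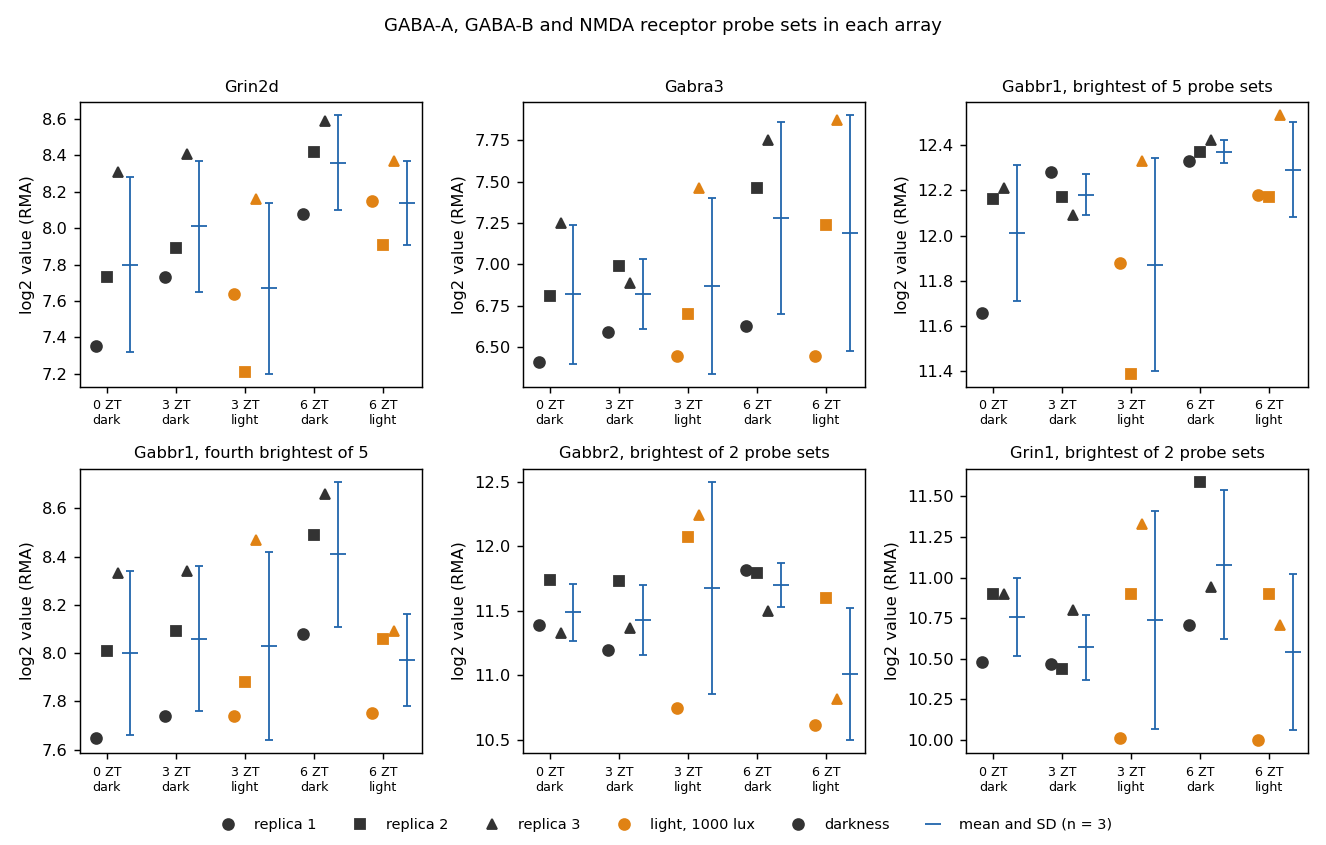
Log2 values (vertical axis) of *Grin2d*, *Gabra3*, *Gabbr1* (its brightest and that of rank 4), *Gabbr2* and *Grin1* in each of 15 arrays, by condition (horizontal axis). Symbols are replicas, orange marks light, and blue bars are mean and SD (n = 3). The 6 ZT dark arrays of *Gabbr1* (12.33 to 12.42) lie above those of 0 ZT dark (11.66 to 12.21).

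Markers of some other cells also differed in these 6 ZT comparisons. Of the lens list, 15 of 15 measured genes lay above 0 ZT dark in darkness at 6 ZT (median 1.11), and 15 of 15 were lower with light at that hour (median −1.72). Their mean log2 level was 12.50 to 13.09 in 6 ZT dark, 9.19 to 12.23 in 6 ZT light and 10.66 to 12.13 in 0 ZT dark. Pigment epithelium genes went against the lens genes, with 6 of 7 below 0 ZT dark in darkness at 6 ZT (median −0.42) and 6 of 7 higher with light at that hour (median 0.67). Among neurons that carry many of these receptors, 8 of 8 ganglion cell markers (median −0.43) and 8 of 9 amacrine markers (median −0.18) were lower with light at 6 ZT. Of the bipolar and horizontal cell markers, 3 of 5 (median 0.04) and 2 of 4 (median 0.03) were higher. Higher too were 4 of 4 rod (0.07), 4 of 5 cone (0.16) and 4 of 6 Müller glia markers (0.03). Microglia (4 of 4, −0.08) and blood and vessel markers (3 of 4, −0.12) were lower. In darkness at 6 ZT, 5 of 8 ganglion (median 0.10), 7 of 9 amacrine (0.06), 3 of 4 horizontal (0.06) and 1 of 5 bipolar markers (−0.05) lay above 0 ZT dark. Ganglion markers averaged 12.45 to 12.53 in 6 ZT dark and 11.56 to 12.40 in 6 ZT light. The list means lay above the bound of the dimmest 25% on every array, and the part of these cells in the receptor values was not tested.

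The AMPA receptor genes, which carry fast excitation, differed in sign between replicas. With light at 6 ZT all 4 were lower in replica 1 and all 4 higher in replica 2, with class medians of −0.55, 0.47 and −0.04 in replicas 1, 2 and 3. *Gria2*, the subunit that limits calcium entry, was at 10.50, 11.85 and 11.98 in 6 ZT dark and at 9.89, 12.54 and 12.18 in 6 ZT light. It was at 11.23, 11.85 and 11.90 in 0 ZT dark, so the low values were those of replica 1 at 6 ZT. Its SD was 0.37 in 0 ZT dark and 1.44 in 6 ZT light, and its difference between 6 ZT light and 6 ZT dark was 0.09 (95% interval −0.70 to 0.88). By their brightest probe sets the other AMPA genes differed by −0.16 to 0.19 in every comparison. Dimmer probe sets gave other values in 6 ZT dark against 0 ZT dark, 0.38 for *Gria3* and −0.36 and 0.07 for *Gria4*.

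The brightest probe sets of the glycine receptor genes differed by −0.28 to 0.11 over the 6 comparisons. In 6 ZT dark against 0 ZT dark second probe sets gave other values, 0.54 (SE 0.326) for the alpha subunit *Glra2*, whose brightest differed by −0.08, and 0.53 (SE 0.28) for *Glrb*, both higher in all 3 replicas. *Glrb*, the beta subunit that anchors the receptor through gephyrin, was at 11.57, 11.75 and 11.93 in 6 ZT dark and at 10.70, 11.87 and 11.87 in 6 ZT light, so that its difference of −0.28 (SE 0.205) came from replica 1. The delta receptor *Grid1* lay between −0.13 and 0.08. In replica 1 it read 7.97 in 4 of 5 conditions.

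**Figure D4:**
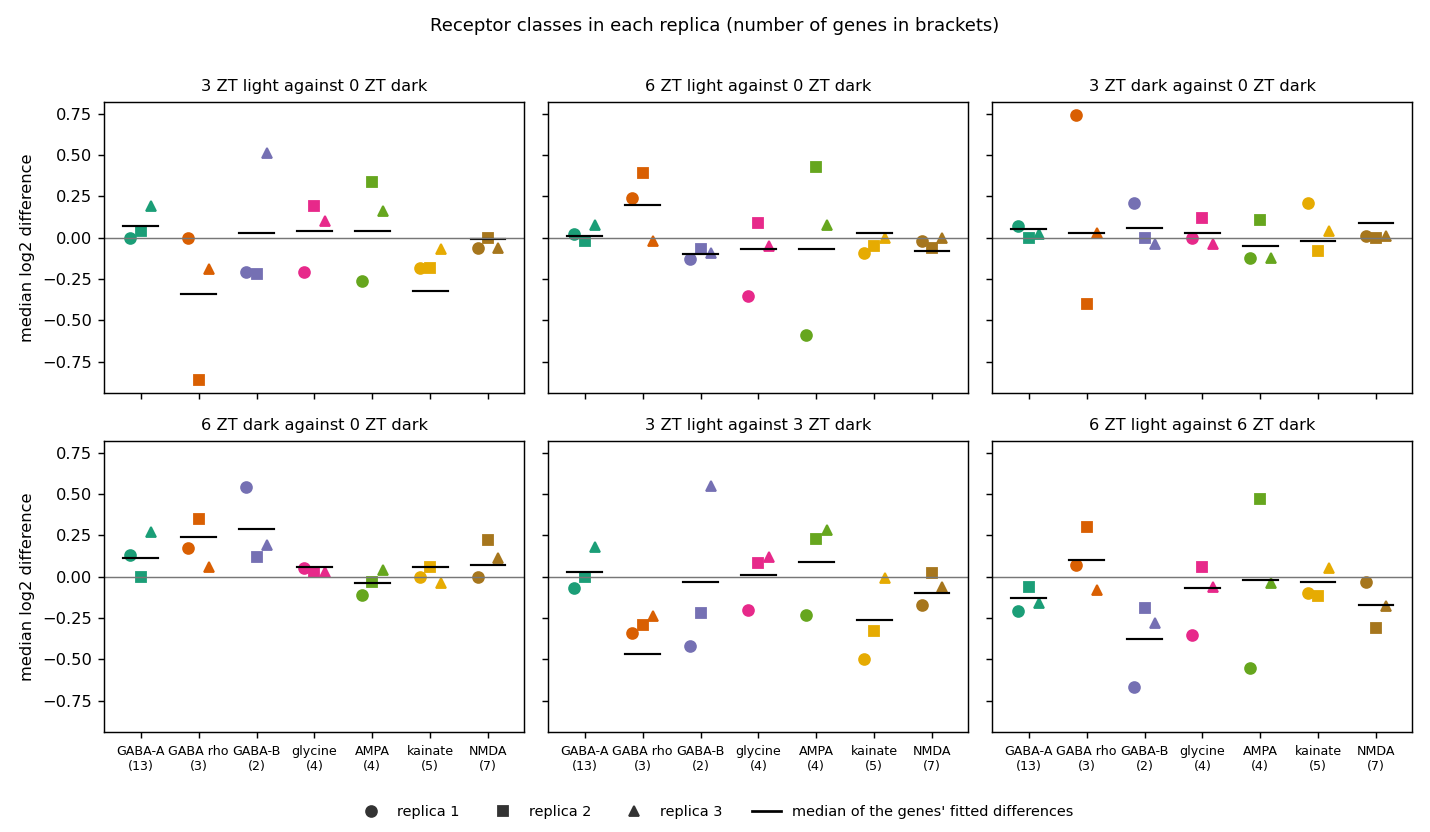
Median log2 difference (vertical axis) of the genes of each receptor class (horizontal axis, number of genes in brackets) in the 6 comparisons. Symbols are replicas and black lines the median of the fitted differences. In 6 ZT light against 6 ZT dark the AMPA genes stand at −0.55 in replica 1 and 0.47 in replica 2, and in 3 ZT light against 3 ZT dark the rho genes lie below 0 in every replica.

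Replicas of light at 3 ZT also differed for the receptors as a whole. In 3 ZT light against 3 ZT dark 29 genes were lower and 4 higher in replica 1, 16 lower and 18 higher in replica 2, and 14 lower and 23 higher in replica 3. The fitted count was 18 above 0 (46.2%, against 50.2% of all probe sets), with a median of −0.01, and 14 without 3 ZT light replica 2. The light effect at 6 ZT minus that at 3 ZT was below 0 for 28 of 39 genes (71.8%, median −0.09), against 51.2% of all probe sets (median −0.01). Of these, 2 had an unadjusted p under 0.05, *Gabbr2* and *Grin1* (5.13%, against 1.81% of all probe sets lower and 4.14% higher), and the lowest adjusted p was 0.776.

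Probe sets of one gene often disagreed in sign. Of the 20 genes with several probe sets, the signs differed for 10 between light and darkness at 3 ZT and for 6 at 6 ZT. Against 0 ZT dark they differed for 9 (3 ZT light), 12 (6 ZT light), 6 (3 ZT dark) and 5 (6 ZT dark). A second *Grin2a* probe set differed by 0.77 (SE 0.335, limma adjusted p = 0.895) between 3 ZT light and 3 ZT dark, where the brightest differed by −0.12. A second *Gabrb2* probe set, for a beta subunit of GABA-A receptors, was higher in 3 ZT light than in 0 ZT dark in all 3 replicas, by 0.35 (SE 0.142, limma adjusted p = 0.641), where the brightest differed by 0.07. Exactly equal values in 3 or more arrays of one replica number occurred in 13 of 39 receptor genes (33.3%), against 35.1% of all probe sets. *Grin2b* read 7.56 in all 5 conditions of replica 1.

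Other genes of these synapses were counted from a list of 67, of which 59 were measured. None passed an adjusted p under 0.05. In 6 ZT dark against 0 ZT dark 42 were higher and 17 lower (28.8%, against 47.5% of all probe sets), with a median of 0.08. An unadjusted p under 0.05 was reached by 4 higher (6.78%, against 3.47% of all probe sets) and 0 lower (against 5.26%). These were *Slc6a11*, a GABA transporter, by 0.39 (SE 0.125), the AMPA auxiliary subunit *Cacng5* by 0.36 (SE 0.117), *Gad2*, which makes GABA, by 0.34 (SE 0.138), and the adhesion protein *Nlgn3* by 0.26 (SE 0.0924). In 6 ZT light against 6 ZT dark 23 were higher and 36 lower (61%, against 51.9% of all probe sets). An unadjusted p under 0.05 was reached by 6 genes. Higher were *Slc12a2*, a chloride importer (0.35, SE 0.117), and *Dlg1* (0.30, SE 0.128). Lower were the AMPA auxiliary genes *Cnih2* (−0.48, SE 0.202) and *Cacng5* (−0.29, SE 0.117), the GABA-A auxiliary gene *Lhfpl4* (−0.16, SE 0.0687) and *Grm2* (−0.33, SE 0.132). That is 3.39% higher and 6.78% lower, against 5.56% and 2.97% of all probe sets.

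In light at 3 ZT, 40 of 59 genes of the same list (67.8%) were lower than in 0 ZT dark, against 48.8% of all probe sets. Lower than in 3 ZT dark were 34 of 59 (57.6%, against 49.7%). An unadjusted p under 0.05 was reached by 5 lower (8.47%, against 4.43% of all probe sets) and 1 higher (1.69%, against 3.25%) in the former comparison and by 3 lower (5.08%, against 2.64%) and 0 higher (against 1.96%) in the latter. *Grm6*, the glutamate receptor of ON bipolar cells, was lower in every replica, by −0.83 against 3 ZT dark (SE 0.23, limma adjusted p = 0.895) and by −0.91 (SE 0.23) against 0 ZT dark. The scaffold *Dlg4* differed by −0.42 (SE 0.125) from 3 ZT dark and by −0.37 (SE 0.125) from 0 ZT dark, lower in every replica. *Glul*, the glutamine synthetase of Müller glia, was the third of the list with an unadjusted p under 0.05 against 3 ZT dark (−0.21, SE 0.0889). Lower than in 0 ZT dark were also the AMPA auxiliary gene *Shisa9* (−0.55, SE 0.177), the scaffold *Shank1* (−0.45, SE 0.165) and *Slc32a1*, which loads GABA and glycine into vesicles (−0.69, SE 0.301), each in all 3 replicas, while *Nlgn3* was higher (0.22, SE 0.0924). For *Slc32a1* the largest difference, −1.29, was in replica 2, whose 3 ZT light array had the largest *Actb* difference. In 6 ZT light against 0 ZT dark the list was near balance, with 28 higher and 30 lower (50.8%, against 52.3% of all probe sets). Its 2 genes with an unadjusted p under 0.05 were the transporters *Slc1a2* for glutamate (0.54, SE 0.213) and *Slc6a11* for GABA (0.34, SE 0.125), both higher (3.39%, against 3.92% of all probe sets). The list also leaned lower in 3 ZT dark against 0 ZT dark, with 20 higher and 39 lower (66.1%, against 47.6% of all probe sets). None had an unadjusted p under 0.05 there, as 0.477% of all probe sets did upward and 0.776% downward.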

How the data were processed

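Retinal RNA was hybridised by the authors to Affymetrix RAT230_2 arrays, and the deposited log2 values are the authors' Robust Multi-array Average output. Whether the replica numbers were normalized together is not given in the sources used here. Of 31099 probe sets, 57 controls were left out, and 20826 of the other 31042 carried 1 gene symbol in the platform annotation (436 carried several, 9780 none). All 31042 were fitted with limma 3.58.1 (R 4.3.3, statmod 1.5.0), with condition and replica number as terms and Benjamini-Hochberg adjustment. Replica numbers come from the sample titles, and the study formed ratios within them. Arrays of the same number deviated together in 18 of 18 checks (r 0.289 to 0.797), so the number was kept as a block.

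Genes named in full were, for each comparison, up to 3 in each direction with the lowest p among those with the same sign in all 3 replicas, the 5 genes with the lowest F p, any probe set passing the ratio rule, the rho subunits and genes whose probe sets differed in sign. *Gabrg1*, *Gria2*, *Glrb*, *Grid1*, *Grin2b* and *Gabrb2* were added after their values were seen. The members, lists and tests were chosen with earlier results of these data known. Pathway and marker lists were fixed by name. Some receptor genes are not reported here. Upstream windows are from RefSeq (GRCr8). Tables were handled with Python 3.11.15 and pandas 2.3.3, and figures drawn with matplotlib 3.10.9. The fit was tested on simulated data. Alternatives were no block, only the conditions compared, quantile or cyclic loess normalization, array weights, a filter on dim probe sets, probe sets averaged per gene, other ratio limits, each array left out in turn and both arrays of large *Actb* difference left out. Array number limits the precision.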

Additional observations from a re-analysis of the deposited data

Results flagged for a closer look

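The effect of light on *Gabrr1* differed between the time points in sign in every replica, lower in light at 3 ZT (−0.87, −0.29 and −0.24) and higher at 6 ZT (0.07, 0.30 and 0.27). The light effect at 6 ZT minus that at 3 ZT was 0.68 (SE 0.331, 95% interval −0.05 to 1.42, limma adjusted p = 0.776), which did not pass the threshold. With 1 array left out, the 3 ZT effect (fitted −0.47) ran from −0.73 to −0.16, the latter without 3 ZT dark replica 1, and the 6 ZT effect (fitted 0.21) from 0.02, without 6 ZT light replica 2, to 0.41. In the dimmer *Gabrr1* probe set the difference between the 6 ZT and 3 ZT light effects was 0.08 (SE 0.348, limma adjusted p = 0.966). In light at 3 ZT 5 of 5 bipolar, 6 of 6 Müller glia and 5 of 5 cone markers were lower than in 3 ZT dark. Lens (14 of 15) and ganglion markers (5 of 8) were higher there. With light at 6 ZT 2 of 5 bipolar markers were lower. The part of these cells in the *Gabrr1* values was not tested.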

How the results depend on the processing

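The alternatives gave 0 receptor genes past an adjusted p under 0.05, except array weights in 6 ZT light against 6 ZT dark, which gave 2, *Gabbr2* (−0.91, adjusted p = 0.0419) and *Gabrg1* (−0.31, adjusted p = 0.0416), with 2311 probe sets past it. Dimmer probe sets of *Gabbr1* (−0.55), *Grin2a* (−0.25) and *Glra1* (−0.27) passed there too, and that of *Gabrr1* in 6 ZT light against 0 ZT dark (0.93). The weights gave 6 ZT light replica 3 a weight of 7.447 and the others 0.16 to 3.2. With weights, 676 probe sets passed in 6 ZT light against 0 ZT dark, 2 in 3 ZT light against 0 ZT dark and 3 in 6 ZT dark against 0 ZT dark. In 3 ZT light against 3 ZT dark 0 passed without the replicate block, with quantile normalization and with only the conditions compared, which also gave 0 in 3 ZT light against 0 ZT dark. Without the replicate block, 0 receptor genes had an unadjusted p under 0.05 in any comparison, and 35 to 392 probe sets did. Without both arrays of large *Actb* difference, 3 probe sets passed in 6 ZT light against 0 ZT dark, and in 3 ZT light against 0 ZT dark *Gabra6* was at −0.01 and *Gabre* at −0.00. In 6 ZT light against 0 ZT dark the median of the 39 genes was 0.01 with cyclic loess, 0.01 with probe sets averaged per gene and −0.04 without both arrays. In 6 ZT dark against 0 ZT dark *Gabra5* was at 0.01 with weights and at 0.01 without 6 ZT dark replica 2, and in 3 ZT dark against 0 ZT dark *Grin1* was at 0.02 without 3 ZT dark replica 2 and ran from −0.38 to 0.02 over all arrays left out. The causes were not tested.

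Leaving out each array in turn gave 0 to 0 receptor genes past an adjusted p under 0.05. Probe sets past it were 0 to 2 in 3 ZT light, 0 to 38 in 6 ZT light (38 without 3 ZT light replica 2), 0 to 0 in 3 ZT dark and 0 to 1 in 6 ZT dark against 0 ZT dark, 0 to 1 in 3 ZT light against 3 ZT dark and 0 to 3 in 6 ZT light against 6 ZT dark. In that order, receptor genes above 0 were 16 to 23, 16 to 18, 15 to 27, 27 to 32, 13 to 23 and 5 to 12 (5 without 6 ZT light replica 2). Their medians were −0.04 to 0.05, −0.05 to −0.01, −0.03 to 0.05, 0.08 to 0.11, −0.07 to 0.03 and −0.13 to −0.08.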
